A study of Eleocharis dulcis with 24 samples.

Results

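A total of 237 genes in the corms of *Eleocharis dulcis* (Chinese water chestnut) had a higher level at maturity than at the initial stage in cultivated plants and a lower level at maturity than at the initial stage in wild plants. They were chosen by their own TPM values at these stages, among the 33415 features whose ID starts with EdulChr, out of 35975 features in all. With M as the mean of log2(TPM + 1) over the 3 libraries of a group, M at maturity minus M at the initial stage had to be at least 1 in cultivated corms and at most -1 in wild corms. TPM is a transcript abundance corrected for transcript length and scaled to a fixed library total. The rule further asked for a mean of at least 5 TPM in cultivated corms at maturity and in wild corms at the initial stage, and for less than 2000 TPM in every group mean. The initial and maturity libraries therefore chose the genes, and their values are given as a description with no test. Under the same limits, 97 genes had the opposite pattern, 322 were higher at maturity in both origins and 4016 were lower in both.

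The groups were cultivated corms at initial swelling, middle swelling, late swelling and maturity, and wild corms at the same 4 stages. With 3 libraries, called biological replicates, in each of the 8 groups there were 24 in all, made from total RNA. The labels name no cultivar, wild population, site, plant age or batch, so none of these can be told apart from origin. Nothing in the labels says whether each library came from 1 corm or from several. The IDs are not paired with gene names in the sources used here, so genes are given by ID without a function, and the labelled tissue could not be checked against marker genes.

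A corm is a swollen underground stem that stores carbohydrate. During swelling, growth by cell division and expansion gives way to filling with starch and sugars, and at maturity the corm enters dormancy. Cultivated water chestnut has been selected for large, sweet corms, and wild plants form smaller ones. These statements are background and were not measured here.

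Library totals lay between 999991 and 1000002 TPM, so sequencing depth is unknown and no counting interval can be given. A feature was tested if it reached 1 TPM in at least 3 libraries, which 27050 features and all 237 genes did. The p-values given set a difference of group means against the spread of libraries within groups, pooled over all 8 groups. The spread between the 3 libraries of a group is the only variation they take into account. In bulk tissue, fewer cells of a type and less RNA per cell cannot be told apart. Replicates of the 237 genes lay close together, with a median coefficient of variation between 3.29% (cultivated late) and 6.98% (cultivated initial).

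By construction each gene was higher at maturity in cultivated corms, with a median log2 change of 1.43 and a range of 1.00 to 4.93. In wild corms the median change was -1.63, with a range of -6.30 to -1.01. The cultivated change was at least 2 in 55 genes, and the wild change was at least 2 in size in 78. In cultivated corms every maturity library lay above every initial library for 234 of the genes (20.6% of all features tested showed this). In wild corms every maturity library lay below every initial library for 235 of the genes (76.8% of all features tested). The 3 genes with overlap in at least 1 origin were EdulChr96G00304190, EdulChr105G00323220 and EdulChr107G00327120, each listed at 0 in some libraries. EdulChr105G00323220 was listed at 0 in 1 of the 3 wild initial libraries and in 2 of the 3 cultivated mature libraries. EdulChr96G00304190 had 15.9, 0 and 0 TPM in the cultivated mature libraries and 0, 9.35 and 0 TPM in the wild mature ones. The cultivated rise of both genes thus rests on 1 library.

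TPM values share a fixed total, and the size of the wild change depended on the scaling. Median-of-ratios scaling, which sets the typical gene equal between libraries, moved the median change from initial to maturity over all features tested to -0.12 in cultivated corms, against -0.61 as deposited. For wild corms it became -0.14, against -0.90 as deposited. After that scaling the 237 genes had a median change of 2.06 in cultivated corms, with all 237 at 1 or more. In wild corms their median change was then -0.61. It was still below 0 in 225 genes and at most -1 in 73, while 12 genes stood slightly above 0, up to 0.12. The gap between the cultivated and the wild change, which the rule set to at least 2, had a median of 3.31 as deposited and 2.92 after scaling. Applied to scaled values the rule chose 155 genes, of which 69 were among the 237, that is 29.1% of the 237 and 44.5% of the 155.

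The fold limits had no gap at their edge. Just inside the limit on the cultivated change were EdulChr71G00241680 and EdulChr34G00134830 with log2 changes of 1.00 and 1.01, and just outside it EdulChr33G00130640 and EdulChr1G00003310 with 0.999 and 0.997. Just inside the limit on the wild change were EdulChr29G00115940 with -1.01 and EdulChr69G00235510 with -1.02, and just outside it EdulChr44G00164310 with -0.999 and EdulChr14G00059780 with -0.997.

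The median group mean of the 237 genes was 10.7, 33.9, 34.6 and 35.6 TPM in cultivated corms from the initial stage to maturity, and 20.9, 19.7, 18.2 and 5.56 TPM in wild corms. Over all features tested, the medians of the group means were 8.27, 4.89, 6.49 and 4.43 TPM in cultivated and 7.29, 7.60, 4.86 and 2.56 TPM in wild corms. After median-of-ratios scaling the medians of the 237 genes were 7.53, 34.2, 26.9 and 40.9 in cultivated and 17.4, 15.7, 23.3 and 10.4 in wild corms. On both scales the cultivated median was lowest at initial and the wild median lowest at maturity. The order of the other stages changed with the scaling, and late was the highest wild stage only after it.

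Summed over the 237 genes, TPM made up 0.414 ± 0.0222, 1.37 ± 0.00420, 1.61 ± 0.0102 and 1.41 ± 0.0196% of the library total in cultivated corms from initial to maturity (SD, n = 3). In wild corms the sum was 1.48 ± 0.00764, 1.30 ± 0.00438, 1.25 ± 0.0220 and 0.358 ± 0.00206% (SD, n = 3). The initial cultivated and the mature wild libraries had the low sums, and the other groups all lay above 1.2%. Within each origin the rule set the low end below the other end for each gene, so that difference between ends was fixed in advance. The sums are as deposited and were not made after scaling. The 10 highest of the 237 held 26.0% of this sum in mature cultivated corms and 40.1% in initial wild corms.

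**Figure D1:**
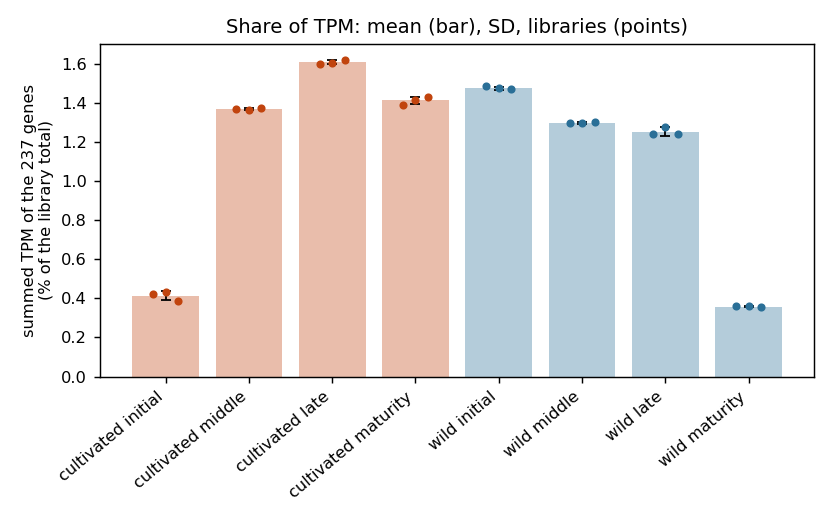
Summed TPM of the 237 genes as a percentage of the library total (vertical axis) in each of the 8 groups; bars are means of 3 libraries, whiskers are SD and points are libraries. Cultivated initial (0.414%) and wild maturity (0.358%) are the low groups, and the other 6 lie between 1.25 and 1.61%. Values are as deposited, and the rule set each low group below the other end of its origin.

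The stage at which a gene first covered at least 50% of its change on the log2 scale was mostly middle in cultivated and maturity in wild corms. In cultivated corms 206 of the 237 genes (86.9%) had done so by the middle stage, 20 by the late stage and 11 by maturity. In wild corms 35 genes had done so by the middle stage, 40 by the late stage and 162 (68.4%) by maturity. After scaling, 214 genes had done so by middle in cultivated corms. Of the 225 genes that were still lower at maturity in wild corms, 64 had done so by middle, 25 by late and 136 (60.4%) by maturity. The end points of these counts are values the rule used. As deposited, the most frequent combination, in 143 genes, was a cultivated change reached by middle and a wild change reached at maturity. Between initial and middle, which shares the initial libraries with the rule, the median difference (middle minus initial) was 1.42 in cultivated and 0.15 in wild corms. Between late and maturity, which shares the maturity libraries, the median difference (maturity minus late) was -0.02 in cultivated and -1.53 in wild corms. These differences are as deposited and depend on the scaling. After scaling the median level of the 237 genes went from 26.9 at late to 40.9 at maturity in cultivated corms. In wild corms it went from 23.3 to 10.4.

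The highest group mean was not always at the end that the rule used. As deposited, the cultivated peak stood at middle in 67 genes, at late in 98 and at maturity in 72. In wild corms it stood at the initial stage in 64 genes, at middle in 110 and at late in 63. After scaling the peak was at maturity in 128 genes in cultivated corms and at late in 138 genes in wild corms, so the peak stage depended on the scaling. On the deposited scale a middle or late mean lay at least 1 (log2) above both the initial and the maturity mean in 27 genes in cultivated corms and in 31 genes in wild corms. A further 2 genes in each origin had such a stage and also one at least 1 below both ends. For these genes the words higher and lower hold for the end points and not for the course.

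**Figure D2:**
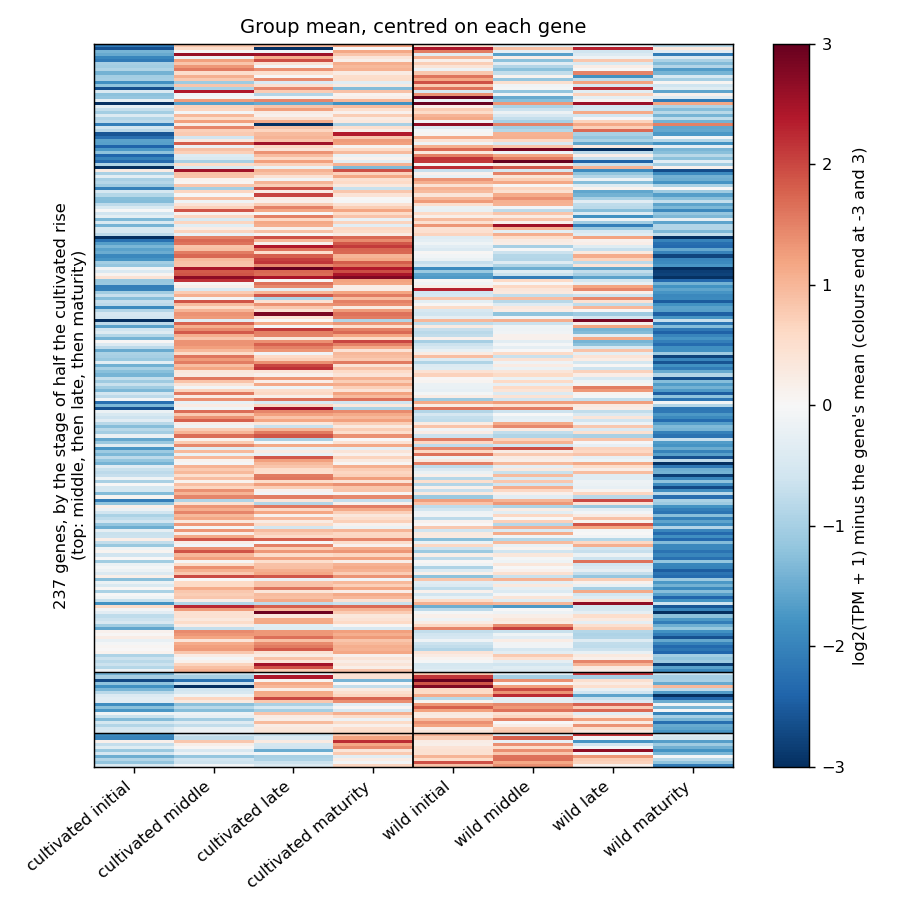
Group means of log2(TPM + 1) for the 237 genes (rows), centred on each gene's mean over the 8 groups (columns: 4 cultivated stages, then 4 wild stages); black lines part genes by the stage at which 50% of the cultivated change was reached (206 at middle, 20 at late, 11 at maturity). Cultivated initial and wild maturity are the low columns for most rows, and the cultivated columns from middle on are high. Values are as deposited, and the rule set each low column below the other end of its origin.

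The highest of the genes in mature cultivated corms was EdulChr87G00283190. It had 164, 163 and 149 TPM at initial, 468, 481 and 405 TPM at middle, 499, 488 and 469 TPM at late and 657, 585 and 639 TPM at maturity in cultivated corms. The wild libraries had 313, 314 and 295 TPM at initial, 371, 368 and 376 TPM at middle, 188, 188 and 184 TPM at late and 151, 147 and 148 TPM at maturity. The cultivated libraries lay below the wild ones at the initial stage and above them at each later stage, with no overlap at any stage. After scaling its wild change was 0.12, the highest of the 237 genes, so its lower level in mature wild corms held on the deposited scale alone. EdulChr78G00262230 stayed above its initial level in cultivated corms, at 95.4 ± 4.98, 391 ± 16.1, 473 ± 4.96 and 364 ± 11.3 TPM from initial to maturity (SD, n = 3). In wild corms its means were 118 ± 5.66, 136 ± 2.62, 116 ± 7.11 and 45.6 ± 1.92 TPM (SD, n = 3), and its wild change was -1.36 as deposited and -0.21 after scaling.

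EdulChr11G00049300 took a less direct course. It had 137, 133 and 121 TPM at initial, 244, 249.7 and 238 TPM at middle, 143, 148 and 152 TPM at late and 475, 472 and 502 TPM at maturity in cultivated corms. Wild corms had 247, 236 and 244 TPM at initial, 557, 554 and 544 TPM at middle, 143, 147 and 140.0 TPM at late and 96.5, 99.4 and 109 TPM at maturity. In both origins it was higher at middle than at late, and the high mature level belonged to cultivated corms. Its wild change was -1.25 as deposited and -0.09 after scaling. EdulChr31G00124090 was among the 5 highest genes both at cultivated maturity and at wild initial. Its means were 84.9 ± 7.40, 300.3 ± 36.8, 714 ± 12.6 and 430.5 ± 59.3 TPM in cultivated and 683 ± 61.6, 372 ± 13.1, 301 ± 38.8 and 241 ± 4.27 TPM in wild corms from initial to maturity (SD, n = 3). The cultivated peak lay at late, and the deposited wild means descended over all 4 stages. Its wild change was -1.49 as deposited and -0.33 after scaling.

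In initial wild corms the highest gene was EdulChr43G00163740, which also had the largest wild change of the 237 genes, -6.30 as deposited and -5.18 after scaling. It had 3.07, 3.13 and 2.61 TPM at initial, 4.82, 4.17 and 4.54 TPM at middle, 24.8, 27.4 and 27.5 TPM at late and 8.90, 9.09 and 8.60 TPM at maturity in cultivated corms. In wild corms it had 1088, 993 and 1037 TPM at initial, 66.2, 65.5 and 64.4 TPM at middle, 34.3, 35.1 and 38.4 TPM at late and 10.3, 13.3 and 13.2 TPM at maturity. The wild libraries lay far above the cultivated ones at the initial stage, and by maturity the means were 8.86 TPM in cultivated and 12.3 TPM in wild corms. For EdulChr43G00163740 the wild change was thus far larger than the cultivated one, with a cultivated level that stayed under 30 TPM throughout. EdulChr2G00007570 had the next highest initial wild level. Its means were 44.2 ± 3.16, 132 ± 6.29, 150.0 ± 5.41 and 215 ± 9.67 TPM in cultivated and 915 ± 17.6, 236 ± 1.95, 503 ± 26.9 and 60.1 ± 1.39 TPM in wild corms (SD, n = 3), with a wild dip at middle.

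EdulChr111G00334020 was the highest of the 237 genes in middle cultivated corms. Its means were 121 ± 5.06, 548 ± 25.6, 348 ± 7.30 and 293 ± 10.8 TPM in cultivated and 585 ± 4.48, 768 ± 15.3, 150.3 ± 2.68 and 123 ± 1.02 TPM in wild corms (SD, n = 3). Both origins peaked at middle, and wild corms had dropped to a level near that of maturity by the late stage.

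The 5 genes with the largest opposed change (by the smaller of both changes) were EdulChr89G00287130, EdulChr51G00186760, EdulChr105G00322810, EdulChr104G00320990 and EdulChr2G00007570. EdulChr89G00287130 had 0, 0 and 2.13 TPM at initial, 23.99, 45.6 and 31.4 TPM at middle, 30.4, 44.2 and 64.9 TPM at late and 43.8, 30.8 and 41.6 TPM at maturity in cultivated corms. The wild libraries had 13.6, 7.66 and 5.20 TPM at initial, 9.90, 24.3 and 18.2 TPM at middle, 37.3, 25.4 and 18.8 TPM at late and 0, 0 and 0 TPM at maturity. It was listed at 0 in 2 of 3 cultivated initial libraries and in all 3 wild mature libraries, so its changes of 4.75 and -3.20 rest on the pseudocount of 1. EdulChr51G00186760 had means of 2.05 ± 0.246, 37.7 ± 1.05, 39.6 ± 1.16 and 22.8 ± 0.101 TPM in cultivated and 9.98 ± 0.981, 5.41 ± 0.356, 24.1 ± 1.05 and 0.740 ± 0.140 TPM in wild corms (SD, n = 3). It was lower at maturity than at late in both origins, but in wild corms mature libraries held under 1 TPM.

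**Figure D3:**
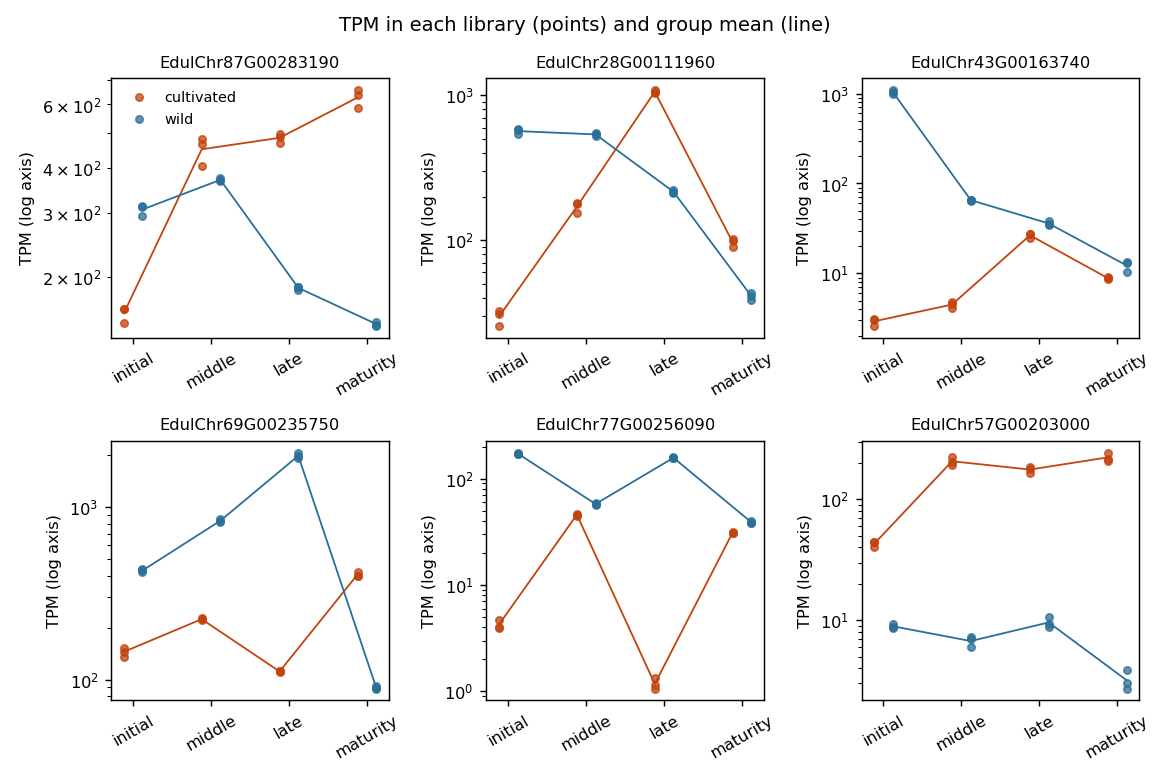
TPM (log axis) of 6 of the 237 genes by stage; points are libraries, lines join the means of 3 libraries, cultivated in red-brown and wild in blue. EdulChr87G00283190 crosses between initial and middle, EdulChr28G00111960 between middle and late and EdulChr69G00235750 between late and maturity, EdulChr77G00256090 dips to 1.17 TPM in late cultivated corms, and EdulChr57G00203000 is higher in cultivated corms at every stage.

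The middle and late libraries took no part in choosing the genes beyond the ceiling of 2000 TPM, so contrasts among them could be tested. A gene was called where limma's adjusted p was under 0.05 and the log2(TPM + 1) difference at least 1 in size, which is 2-fold. Late minus middle in cultivated corms asked how far the genes still moved once the initial step was over. Of the 237 genes, 34 rose (14.3%, against 8.87% of all features tested) and 16 fell (6.75%, against 3.75%), while 187 were not called. Among the 9879 EdulChr genes with the same TPM floors and ceiling, 7.05% were higher and 4.2% lower. The median difference was 0.11, against 0.15 over all features tested. After median-of-ratios scaling 18 rose and 32 fell (7.59 and 13.5%, against 3.86 and 6.21% of all features), so the prevailing direction turned over with the scaling. The scaling moved the median of all features to -0.01 and that of the 237 genes to -0.25.

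The largest rise among genes that met the rule for naming was that of EdulChr107G00327120. It was listed at 0 in all 3 cultivated middle libraries and had 21.1, 28.2 and 45.5 TPM in the late ones, so no fold is given. EdulChr69G00235510 had 43.2, 45.5 and 50.98 TPM in late cultivated corms against 4.35, 5.71 and 5.80 TPM in middle cultivated corms, a difference of 2.92 ± 0.09 (log2, SE, limma adjusted p = 3.47e-16). Its wild change from initial to maturity was -1.02 as deposited and 0.09 after scaling. EdulChr28G00111960 rose further in absolute terms, to 1060 ± 22.7 TPM (SD, n = 3) in late cultivated corms, its highest group mean. It had 32.4, 30.9 and 25.6 TPM at initial, 178, 181 and 153 TPM at middle, 1047, 1046 and 1086 TPM at late and 102, 89.6 and 98.3 TPM at maturity in cultivated corms. Wild corms had 584, 575 and 541 TPM at initial, 539, 526 and 548 TPM at middle, 214, 221 and 213 TPM at late and 41.4, 38.6 and 43.02 TPM at maturity. EdulChr28G00111960 had a difference of 2.63 ± 0.07 (log2, SE, limma adjusted p = 4.42e-17) for late minus middle in cultivated corms, and the late cultivated libraries stood above all other 21 libraries.

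Among the falls, EdulChr77G00256090 came first. It had 4.70, 4.05 and 3.97 TPM at initial, 45.7, 46.8 and 44.8 TPM at middle, 1.14, 1.32 and 1.06 TPM at late and 30.6, 31.7 and 31.1 TPM at maturity in cultivated corms. In wild corms it had 174, 171 and 171 TPM at initial, 59.1, 56.2 and 57.8 TPM at middle, 159, 157 and 154 TPM at late and 37.9, 38.3 and 40.2 TPM at maturity. The late cultivated libraries alone were near 1 TPM, while the middle and mature cultivated libraries all passed 30 TPM. EdulChr77G00256090 had a difference of -4.43 ± 0.05 (log2, SE, limma adjusted p = 1.54e-23) for late minus middle in cultivated corms. EdulChr58G00203950 showed a similar dip, with 3.79, 2.00 and 2.85 TPM in late cultivated corms against 78.8, 65.5 and 61.1 TPM in middle cultivated corms, a difference of -4.18 ± 0.15 (log2, SE, limma adjusted p = 4.93e-15). At maturity it was back at 29.8 ± 7.71 TPM (SD, n = 3) in cultivated corms. Its wild change from initial to maturity was -1.14 as deposited and 0.02 after scaling, so it held on the deposited scale alone.

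In wild corms, late minus middle called 36 genes higher (15.2%, against 7.85% of all features tested) and 46 lower (19.4%, against 26.8%), with 155 not called. Among the 9879 EdulChr genes with the same floors and ceiling, 8.15% were higher and 22.8% lower. The median difference was -0.30, against -0.53 over all features tested. After scaling, 65 rose and 20 fell (27.4 and 8.44%, against 14.5 and 11.2% of all features), with a median of 0.35 against -0.03. On either scale the share that rose was above that of all features and the share that fell below it. The direction that prevailed among the calls depended on the scaling.

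EdulChr41G00155100 had 106, 119 and 113 TPM in late wild corms against 16.4, 14.97 and 17.3 TPM in middle wild corms, a difference of 2.72 ± 0.06 (log2, SE, limma adjusted p = 3.29e-19). EdulChr52G00190630 had 78.8, 82.1 and 79.96 TPM in late wild corms against 11.7, 12.2 and 12.9 TPM in middle wild corms, a difference of 2.62 ± 0.06 (log2, SE, limma adjusted p = 3.00e-19). Both had been lower at middle than at initial in wild corms and were lower again at maturity, so the late value was a single high stage. EdulChr69G00235750 reached the highest level of any of the 237 genes in late wild corms. It had 145, 153 and 135 TPM at initial, 221, 224 and 226 TPM at middle, 111, 112 and 112 TPM at late and 399, 397 and 420.3 TPM at maturity in cultivated corms. The wild libraries had 436, 417 and 429 TPM at initial, 819.6, 847 and 827 TPM at middle, 1958, 2053 and 1917 TPM at late and 88.9, 88.6 and 91.8 TPM at maturity. EdulChr69G00235750 had a difference of 1.25 ± 0.04 (log2, SE, limma adjusted p = 8.43e-17) for late minus middle in wild corms, while in cultivated corms it fell by 1.00 ± 0.04 (log2, SE, limma adjusted p = 1.26e-14). On the deposited scale that cultivated call sat at the 2-fold limit. It was lost, at -0.993 to -0.999, when cultivated middle replicate 2 or 3 or cultivated late replicate 1 was left out. After scaling the late minus middle differences of EdulChr69G00235750 were 1.93 in wild and -1.37 in cultivated corms. Its late wild mean of 1976 TPM lay just under the ceiling of the rule.

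The largest fall in wild corms was that of EdulChr104G00320990. It had 23.2, 22.98 and 22.1 TPM at initial, 152, 140.5 and 136 TPM at middle, 103, 107 and 101 TPM at late and 117, 110.4 and 123 TPM at maturity in cultivated corms. Wild corms had 250.0, 269 and 238 TPM at initial, 566, 531 and 599 TPM at middle, 7.48, 6.84 and 5.44 TPM at late and 30.3, 32.98 and 25.2 TPM at maturity. EdulChr104G00320990 had a difference of -6.23 ± 0.09 (log2, SE, limma adjusted p = 5.31e-22) for late minus middle in wild corms. The late wild libraries were its lowest of all, below the mature wild ones. EdulChr68G00231590 had 0.270, 0.980 and 0.640 TPM in late wild corms against 70.2, 68.9 and 72.7 TPM in middle wild corms, a difference of -5.48 ± 0.24 (log2, SE, limma adjusted p = 1.41e-14).

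The steps of both origins were set side by side, as they share no library. Late minus middle was called in both origins for 24 genes, in opposite directions for 17 (7.17%, against 4.06% of all features tested) and in the same direction for 7 (2.95%, against 1.22%). Of the 9879 genes with the same floors and ceiling, 3.99% were called in opposite directions and 1.16% in the same direction. A further 26 genes (10.97%, against 7.34% of all features tested) were called in cultivated and not in wild corms. Another 58 (24.5%, against 29.4%) were called in wild and not in cultivated corms, a share below that of all features as deposited. After scaling it was 59 genes (24.9%, against 21.7%), a share above that of all features. As deposited, 6.09% of the 9879 genes with the same floors and ceiling were called in cultivated corms alone and 25.8% in wild corms alone. In neither origin 129 genes (54.4%, against 58.0% of all features tested) were called. Of the 17 opposite genes, 11 rose in cultivated and fell in wild corms (4.64%, against 3.05% of all features tested). The other 6 fell in cultivated and rose in wild corms (2.53%, against 1.01%). After scaling 19 genes (8.02%, against 2.99% of all features tested) were called in opposite directions. Of these, 5 (2.11%, against 0.63%) were of the first kind (EdulChr50G00182510, EdulChr5G00023770, EdulChr20G00083640, EdulChr9G00038600 and EdulChr68G00231590, named for their small number). The remaining 14 (5.91%, against 2.36%) were of the second. On both scales the more frequent kind was also the more frequent one among all features tested. The wild fall of EdulChr28G00111960 was -0.63 after scaling, under the 2-fold limit.

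Besides EdulChr28G00111960 and EdulChr68G00231590, 1 gene of the first kind is given as an example, picked after its values were seen. EdulChr50G00182510 had 73.6, 71.9 and 59.7 TPM in late cultivated corms against 17.6, 14.7 and 15.4 TPM in middle cultivated corms, and 4.90, 6.42 and 4.92 TPM in late wild corms against 34.9, 35.4 and 37.4 TPM in middle wild corms. Its cultivated libraries lay all below the wild ones at middle and all above them at late. EdulChr19G00080710, also picked afterwards, went the other way: it had 30.5, 30.4 and 31.6 TPM in late cultivated corms against 70.98, 70.4 and 68.97 TPM in middle cultivated corms, and 76.9, 76.5 and 71.7 TPM in late wild corms against 29.1, 30.1 and 29.7 TPM in middle wild corms.

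The interaction, the cultivated minus the wild late-minus-middle difference, was called for 113 of the 237 genes. It was positive in 69 (29.1%, against 40.7% of all features tested) and negative in 44 (18.6%, against 9.69%). At any size, limma's adjusted p was under 0.05 in 206 genes (86.9%, against 85.5% of all features tested), a share near the background as deposited. Of the 9879 genes with the same floors and ceiling, 89.5% met this threshold. After scaling it was again 206 genes (86.9%), against 78.2% of all features and 81.6% of the 9879 genes. After scaling 25 of the calls were positive and 87 negative (10.5 and 36.7%, against 17.2 and 20.5% of all features). On both scales the share of negative calls was above that of all features and the share of positive calls below it. Of the 9879 genes with the same floors and ceiling, 37.9% were positive and 10.5% negative as deposited. The median interaction of the 237 genes was 0.36 as deposited and -0.62 after scaling, against 0.77 and 0.02 over all features tested.

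**Figure D4:**
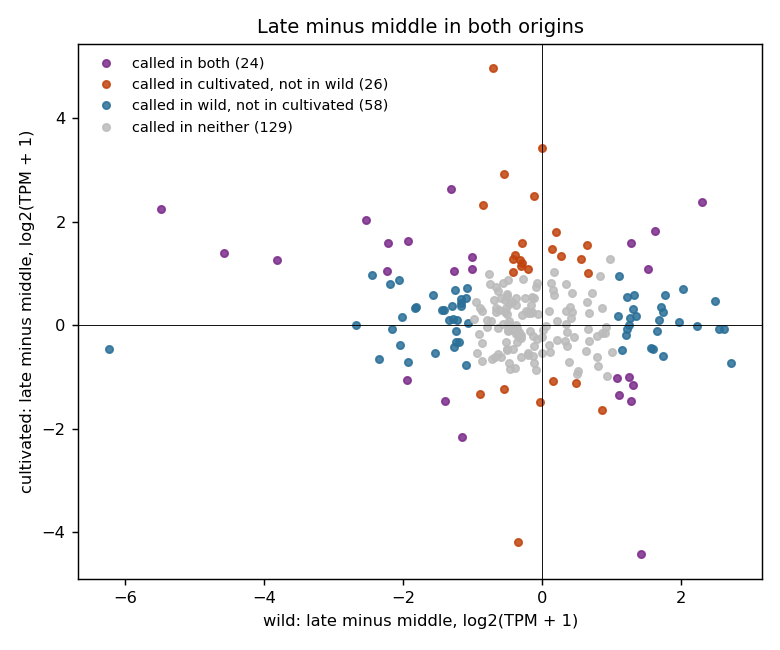
Late minus middle difference on the log2(TPM + 1) scale in cultivated corms (vertical axis) and in wild corms (horizontal axis); each point is 1 of the 237 genes. Colours part the 24 genes called in both origins, the 26 called in cultivated and not in wild corms, the 58 called in wild and not in cultivated corms and the 129 called in neither; 17 of the 24 lie in the quadrants of opposite sign.

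Cultivated against wild corms at the middle stage asked how far the origins had parted by then. Cultivated corms were higher in 90 genes (38.0%, against 17.2% of all features tested) and lower in 45 (19.0%, against 37.9%), and 102 were not called. Among the 9879 EdulChr genes with the same TPM floors and ceiling as the 237, 20.2% were higher and 26.6% lower. The median difference was 0.56, against -0.53 over all features tested and -0.16 over those 9879 genes. After scaling 113 genes were higher and 32 lower (47.7 and 13.5%, against 21.2 and 31.6% of all features). The scaled medians were 0.86 for the 237 genes and -0.28 for all features.

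The largest excess in cultivated corms at middle was that of EdulChr57G00203000. It had 44.5, 44.02 and 40.1 TPM at initial, 193, 204 and 223 TPM at middle, 186, 177 and 167 TPM at late and 209, 242 and 216 TPM at maturity in cultivated corms. In wild corms it had 9.25, 8.85 and 8.66 TPM at initial, 7.26, 6.98 and 5.96 TPM at middle, 8.77, 9.36 and 10.7 TPM at late and 3.86, 2.72 and 3.00 TPM at maturity. The cultivated libraries were above the wild ones at every stage, and the highest wild library had 10.7 TPM. EdulChr57G00203000 had a difference of 4.75 ± 0.09 (log2, SE, limma adjusted p = 4.34e-21) at middle. EdulChr31G00125490 had 159, 145 and 163 TPM in middle cultivated corms against 6.82, 6.67 and 8.28 TPM in middle wild corms, a difference of 4.25 ± 0.10 (log2, SE, limma adjusted p = 1.06e-19). At the other end, EdulChr107G00327120 was listed at 0 in the cultivated middle libraries and had 27.3, 58.5 and 26.8 TPM in the wild ones. EdulChr68G00231590 had 2.56, 4.20 and 3.35 TPM in middle cultivated corms against 70.2, 68.9 and 72.7 TPM in middle wild corms, a difference of -4.05 ± 0.24 (log2, SE, limma adjusted p = 8.67e-13).

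At the late stage cultivated corms were higher in 112 genes (47.3%, against 31.9% of all features tested) and lower in 34 (14.3%, against 22.3%), and 91 were not called. Among the 9879 genes with the same floors and ceiling, 35.6% were higher and 14.6% lower, so the share of lower genes was close to that background. The median difference was 0.89, against 0.26 over all features tested and 0.55 over the 9879 genes. After scaling 71 genes were higher and 52 lower (29.96 and 21.9%, against 19.2 and 30.4% of all features). The scaled medians were 0.20 for the 237 genes and -0.20 for all features.

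EdulChr36G00139010 was the gene most in excess in late cultivated corms. It had 23.3, 25.6 and 22.9 TPM at initial, 146, 148 and 143 TPM at middle, 238, 235 and 253 TPM at late and 139, 133 and 145 TPM at maturity in cultivated corms. The wild libraries had 6.62, 5.53 and 6.62 TPM at initial, 8.49, 8.30 and 9.26 TPM at middle, 8.80, 8.13 and 7.34 TPM at late and 2.34, 2.35 and 2.21 TPM at maturity. EdulChr36G00139010 had a difference of 4.74 ± 0.06 (log2, SE, limma adjusted p = 2.11e-23). EdulChr32G00125750 had 125, 131 and 133 TPM in late cultivated corms against 5.86, 7.08 and 7.36 TPM in late wild corms, a difference of 4.08 ± 0.07 (log2, SE, limma adjusted p = 6.25e-22). The deepest deficits were those of the 2 genes with a late dip, EdulChr77G00256090 at -6.18 ± 0.05 (log2, SE, limma adjusted p = 6.61e-27) and EdulChr58G00203950 at -5.09 ± 0.15 (log2, SE, limma adjusted p = 1.11e-17). EdulChr58G00203950 had 3.79, 2.00 and 2.85 TPM in late cultivated corms against 139, 119 and 129 TPM in late wild corms.

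Both stages together gave 61 genes higher in cultivated corms at middle and at late (25.7%, against 13.6% of all features tested), and 19 lower at both (8.02%, against 17.2%). Of the 9879 genes with the same floors and ceiling, 14.6% were higher at both and 9.21% lower at both. After scaling 50 of the 237 were higher at both (21.1%, against 11.98% of all features) and 20 lower at both (8.44%, against 20.2%). In 14 genes (5.91%, against 2.36% of all features tested) the called difference turned over as deposited. Of these, 11 (4.64%, against 1.81%) were lower in cultivated corms at middle and higher at late. The other 3 (1.27%, against 0.55%) were higher at middle and lower at late (EdulChr41G00155100, EdulChr19G00080710 and EdulChr34G00134830, named for their small number). After scaling 16 turned over (6.75%, against 1.66% of all features), 8 in each direction (3.38% each). Of all features, 0.41% were then lower at middle and higher at late, and 1.25% higher at middle and lower at late. In 50 genes (21.1%, against 23.9% of all features tested) neither stage was called as deposited. EdulChr104G00320990, EdulChr28G00111960 and EdulChr69G00235510 were among the 11. For EdulChr104G00320990 the difference was -1.98 at middle and 3.79 at late.

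Over the 4 stages the median cultivated minus wild difference of the 237 genes was -1.07, 0.56, 0.89 and 2.24, of which the first and last rest on libraries the rule used. The medians over all features tested were 0.12, -0.53, 0.26 and 0.20. After scaling the medians of the 237 genes were -1.22, 0.86, 0.20 and 1.66, so late then lay below middle. As deposited, group means of cultivated corms lay below those of wild corms at the initial stage and above them at maturity in 171 genes. Of these 171, the first stage above wild was middle for 94 genes, late for 45 and maturity for 32. In another 50 genes cultivated means exceeded wild means at both ends. The remaining 16 were lower in cultivated corms at both ends, EdulChr43G00163740 among them. As deposited, the mature cultivated level was within 1 (log2) of the initial wild level in 109 genes. The initial cultivated level was within 1 of the mature wild level in 114. Both counts rest on libraries the rule used, and they were not made over all features or after scaling. The median levels at cultivated initial and wild maturity were 10.7 and 5.56 TPM as deposited, and 7.53 and 10.4 after scaling.

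**Figure D5:**
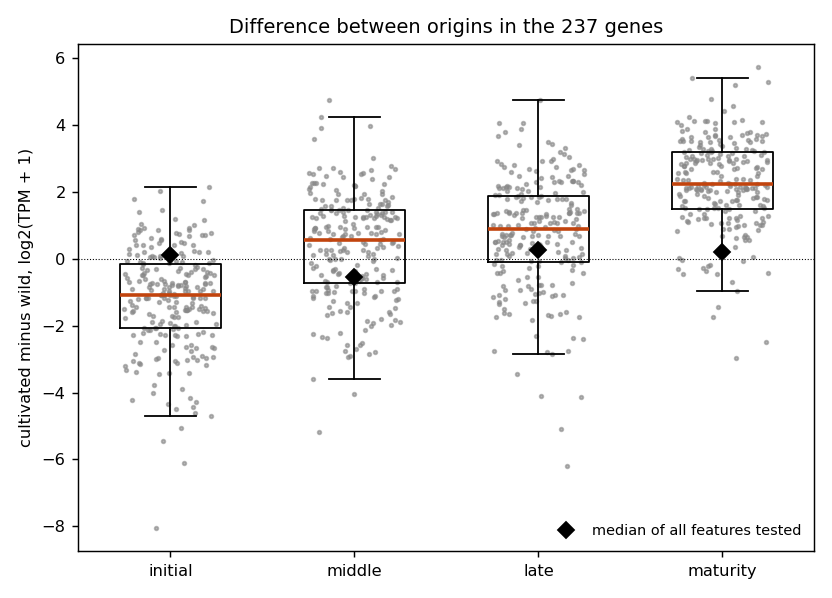
Cultivated minus wild difference of group means on the log2(TPM + 1) scale (vertical axis) at each stage; points are the 237 genes, boxes span the quartiles with the median in red-brown and whiskers reaching at most 1.5 box lengths, and diamonds are the medians over all 27050 features tested. The median of the 237 genes runs from -1.07 at initial to 2.24 at maturity, while the diamonds stay between -0.53 and 0.26; values are as deposited, and after scaling the late median (0.20) lies below the middle one (0.86).

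The IDs of the 237 genes carried 93 of the 111 numbers that follow EdulChr in the file, with at most 6 genes under 1 number. Whether these numbers are chromosomes or scaffolds is not given in the sources used here. In the order of the sorted IDs, 15 pairs of the genes lay within 5 places of each other, and 1 pair was adjacent. That pair was EdulChr78G00262590 and EdulChr78G00262600. EdulChr78G00262590 had means of 4.25 ± 0.189, 16.5 ± 0.262, 21.9 ± 0.572 and 22.7 ± 0.285 TPM in cultivated and 8.22 ± 0.292, 5.84 ± 0.146, 4.25 ± 0.190 and 1.55 ± 0.0651 TPM in wild corms (SD, n = 3). EdulChr78G00262600 had means of 7.20 ± 0.191, 15.8 ± 0.328, 28.0 ± 0.992 and 27.1 ± 0.384 TPM in cultivated and 10.4 ± 0.217, 9.91 ± 0.203, 12.8 ± 0.627 and 3.08 ± 0.124 TPM in wild corms (SD, n = 3). Their courses were alike in cultivated corms. In wild corms late minus middle was -0.38 ± 0.04 (log2, SE, limma adjusted p = 6.56e-08) for the first and 0.34 ± 0.04 (log2, SE, limma adjusted p = 1.99e-07) for the second, both under the 2-fold limit. After scaling these differences were 0.19 and 0.96, both positive, so the opposite signs held on the deposited scale alone.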

How the data were processed

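Total RNA of 24 corm libraries was sequenced, and the authors deposited 1 table of TPM values per gene and library, rounded to 2 decimals. Per the submitters' processing notes, the tools were HISAT2 2.0.4, StringTie 2.1.6 and DESeq2, with no statement of what each did. Genome build and annotation: not given in the sources used here. Columns were matched to samples by origin, stage and replicate number, and none was left over.

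From these TPM values, log2(TPM + 1) was tested in R 4.3.3 by limma 3.58.1 with a trended prior variance, with 8 group means in 1 fit, no replicate block, and Benjamini-Hochberg adjustment over the 27050 features with at least 1 TPM in at least 3 libraries. The fold change on this scale understates the change of low genes. Tested were late minus middle in each origin, cultivated minus wild at middle and at late, and their interaction, since the rule for the genes used the initial and maturity libraries. Size factors for the alternative scaling were medians of ratios to the geometric mean over features above 0 in every library. The test was tried on simulated data first.

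Named were the 5 highest genes at cultivated maturity and at wild initial, the 5 with the largest opposed change, the 2 largest called differences each way in each contrast (at least 10 TPM on the higher side, no overlap of libraries), the longest run of successive IDs and the genes next to the fold limits. Genes picked otherwise are marked. The genes and this rule were chosen with earlier results of these data known. Alternatives were a pseudocount of 0.1, no filter, a mean of at least 5 TPM, the median-of-ratios scaling, a fit of the compared groups alone, a term for the replicate number, omission of each library, other limits of the rule and, added after seeing the data, removal of the 10 highest genes and scaled timing. No gene list was tested, as the IDs carry no names. The sequences of the genes were not used here.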

Additional observations from a re-analysis of the deposited data

Results flagged for a closer look

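The late minus middle change differed between cultivated and wild corms (limma interaction, adjusted p under 0.05 over all features tested) in 28 of the 29 genes named by rule, those just inside the fold limits included. Among the 237 genes 86.9% met this threshold on both scales, and among all features tested 85.5% as deposited and 78.2% after scaling. Many of the 29 were named for a large difference among the middle and late libraries, so their count is a description and supports nothing. The following values are cultivated minus wild differences of the change, on the log2(TPM + 1) scale. The difference was positive in 15 genes: 7.72 for EdulChr68G00231590, 5.77 for EdulChr104G00320990, 5.67 for EdulChr107G00327120, 3.94 for EdulChr28G00111960, 3.47 for EdulChr69G00235510, 3.17 for EdulChr43G00163740, 1.80 for EdulChr32G00125750, 1.69 for EdulChr111G00334020, 1.57 for EdulChr31G00124090, 1.22 for EdulChr11G00049300, 1.10 for EdulChr87G00283190, 0.82 for EdulChr36G00139010, 0.77 for EdulChr78G00262590, 0.50 for EdulChr78G00262230 and 0.45 for EdulChr78G00262600. It was negative in 13 genes: -2.63 for EdulChr34G00134830, -0.98 for EdulChr71G00241680, -0.64 for EdulChr29G00115940, -5.86 for EdulChr77G00256090, -3.83 for EdulChr58G00203950, -3.45 for EdulChr41G00155100, -2.70 for EdulChr52G00190630, -2.25 for EdulChr69G00235750, -1.90 for EdulChr51G00186760, -1.31 for EdulChr31G00125490, -1.02 for EdulChr105G00322810, -0.90 for EdulChr2G00007570 and -0.68 for EdulChr57G00203000. That of EdulChr107G00327120 rests on a group listed at 0 and moves with the pseudocount. After median-of-ratios scaling the sign turned in EdulChr36G00139010 (-0.16), EdulChr78G00262590 (-0.15), EdulChr78G00262230 (-0.55) and EdulChr78G00262600 (-0.54), and EdulChr87G00283190 was at 0.05 (limma adjusted p = 0.579).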

How the results depend on the processing

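Median-of-ratios scaling moved most counts. Late minus middle in cultivated corms then called 18 genes higher and 32 lower, against 34 and 16 as deposited, and in wild corms 65 and 20, against 36 and 46. Cultivated minus wild at late called 71 higher and 52 lower, against 112 and 34, and the interaction 25 and 87, against 69 and 44. The rule itself chose 155 genes after scaling, 403 with fold limits of 0.8 and -0.8, and 61 with limits of 1.5 and -1.5. With a pseudocount of 0.1 it chose 288, with a floor of 10 TPM 170, and without the 10 highest genes (added after seeing the data) 219, of which 123 were among the 237. With scaled values, also added later, 214 genes (206 as deposited) had reached the cultivated change by middle and 136 (162 as deposited) the wild change at maturity. The other alternatives (pseudocount, both filters, compared groups alone) kept every count within 1.5 times its main value.

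Leaving out 1 library at a time gave between 229 and 247 genes by the rule. For late minus middle in cultivated corms it gave 33 to 36 higher and 15 to 16 lower, and in wild corms 36 to 37 and 42 to 46. Cultivated minus wild called 90 to 92 and 43 to 46 genes at middle, and 110 to 113 and 33 to 36 at late, and the interaction 68 to 71 and 42 to 46. Without wild late replicate 3 the rule lost 1 gene, EdulChr69G00235750, whose wild late mean then passed the ceiling.

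With the replicate number as a block, late minus middle called 35 genes higher and 16 lower for cultivated corms, 36 and 46 for wild ones. With that block cultivated minus wild called 90 and 45 at middle and 112 and 34 at late, and the interaction 69 and 44. Deviations from group means correlated between -0.0875 and 0.168 for libraries with the same number, so the numbers were not taken as pairs. Depth is unknown, so counting error could not be given.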

Other observations

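A few features outside the 237 genes had the same change on the deposited scale and failed 1 condition of the rule. They are given for their small number, and their changes after scaling are not given here. EdulChr103G00319210, EdulChr70G00238190 and EdulChr21G00085610 met all but the ceiling of 2000 TPM. EdulChr103G00319210 had means of 635 ± 37.6, 2416 ± 147, 3353 ± 126 and 2654 ± 133 TPM over the 4 cultivated stages, and of 1234 ± 19.6, 1478 ± 64.3, 1218 ± 35.1 and 302 ± 22.7 TPM in wild corms (SD, n = 3). EdulChr70G00238190 had 258 ± 16.0, 2690.3 ± 50.4, 2604 ± 45.4 and 1834 ± 29.4 TPM in cultivated and 993 ± 13.5, 103 ± 0.902, 1116 ± 52.9 and 214 ± 2.74 TPM in wild corms (SD, n = 3). Its wild level at middle was thus the lowest of its 8 group means. EdulChr21G00085610 had 90.7 ± 2.83, 104 ± 7.67, 154 ± 5.34 and 253 ± 19.9 TPM in cultivated and 4246 ± 316, 6201 ± 34.5, 199.5 ± 19.9 and 199 ± 7.32 TPM in wild corms (SD, n = 3).

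Among features without the EdulChr prefix, novel3509, novel545 and novel32 met the other conditions. The first, novel3509, had 34.4 ± 1.79, 115 ± 0.839, 113 ± 1.86 and 97.2 ± 0.631 TPM in cultivated and 74.7 ± 2.31, 78.7 ± 0.953, 96.9 ± 2.39 and 34.8 ± 2.17 TPM in wild corms (SD, n = 3). The values of novel545 were low and uneven, at 4.96 ± 4.94, 15.5 ± 8.95, 18.1 ± 11.9 and 12.5 ± 11.8 TPM in cultivated corms (SD, n = 3), against 6.53 ± 4.59 and 4.39 ± 1.60 TPM in wild corms at initial and middle (SD, n = 3), and it was listed at 0 in the late and mature wild libraries. At novel32 the cultivated means were 8.29 ± 0.160, 4.27 ± 0.330, 3.99 ± 0.186 and 26.9 ± 1.00 TPM and the wild means 26.7 ± 0.898, 16.9 ± 0.751, 14.1 ± 0.272 and 11.4 ± 0.611 TPM (SD, n = 3).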
